A study of Aedes aegypti with 20 samples.

Results

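The pedicel is the swollen antennal segment that houses Johnston's organ, the ear of a mosquito. The comparison described here set 5 RNA sequencing libraries of pedicels from males of the yellow fever mosquito Aedes aegypti against 5 from females, 10 of the 20 libraries of the study, chosen by their labels. The other 10 libraries were whole heads, 5 of each sex, and served to tell genes richer in the pedicel from genes richer in the head. All animals were of the Liverpool strain, the males virgin and the females without a blood meal. They spent 2 days in an incubator and were frozen at zeitgeber time 12. Tissue was taken from groups of animals in 5 repeats and homogenised; the labels give neither age nor how many animals a library pooled. Whether repeats were independent collections is not stated, and the p-values therefore reflect only how these libraries vary, which may be technical. The deposited columns of the head libraries carry the word brain, while their labels say head.

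In flying mosquitoes, sound moves the antennal flagellum, which pulls on ciliated sensory neurons packed around its base in the pedicel. Males use this organ to find the wing-beat tone of a flying female, and their pedicel is larger and holds more of these neurons than that of the female. The comparison asks how far the transcripts of this organ differ between the sexes.

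The deposited table holds estimated counts for 34477 transcripts, which were summed to 19804 gene IDs. Of these IDs, 10659 had enough counts in pedicels to be tested and 9145 did not. Genes are given by ID, since no table used here links them to symbols. Known markers of pedicel, eye, muscle or salivary gland could therefore not be looked up, and the labelled tissue was not checked against them. Estimated counts per pedicel library summed to between 5362568 and 7589336. Levels are given as CPM, counts scaled to library size after TMM normalisation, and folds as log2 of male over female, so that a negative value means higher in females. In tissue samples, fewer cells of a type and less RNA per cell cannot be told apart.

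In the pedicel, 3180 of 10659 genes (29.8%) differed between the sexes at an adjusted p under 0.05 (edgeR's quasi-likelihood test on the 10 libraries alone, Benjamini-Hochberg adjustment over all genes tested). Males had the higher level for 1497 of them (14% of the genes tested) and females for 1683 (15.8%). With this scaling, differences toward females were larger. The median absolute log2 fold of called genes was 0.81 (quartiles 0.61 and 1.17) for those higher in males and 1.05 (quartiles 0.77 and 1.57) for those higher in females. Doubling or more was seen in 509 of the male-higher calls (34%) and in 910 of the female-higher calls (54.1%). Past 4-fold there were 85 male-higher and 254 female-higher genes, and past 16-fold 8 and 66.

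Both the near balance of the 2 directions and the excess of large folds toward females moved with the scaling of the libraries. With factors of relative log expression (RLE) in place of TMM, 1646 male-higher and 1605 female-higher genes were called. With library totals alone, which moved the median log2 fold of all genes from -0.02 to 0.36, the numbers were 1322 and 499. Under library totals the excess turned at 2-fold, with 1312 male-higher and 499 female-higher genes, and at 4-fold, with 178 and 157. At 16-fold it did not turn, with 12 male-higher and 62 female-higher genes, and the median absolute log2 folds were 1.32 and 1.62. RLE gave 572 and 857 genes past 2-fold and 96 and 247 past 4-fold. Tested against a fold of 1.2 instead of no difference (edgeR's glmTreat), 1033 male-higher and 1256 female-higher genes passed.

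The 74 genes past 16-fold were close to limited to 1 sex in pedicels, and in each of them the libraries of the sexes did not overlap. The 66 higher in females had a median level of 40.5 CPM in the pedicels of females, beside 0.352 CPM in those of males. The 8 higher in males had a median of 11.9 CPM in males and 0.453 CPM in females. Of the 66, 29 were pedicel-rich, 2 head-rich and 35 similar in both tissues by the classes set out further on. Of the 49 of them with enough counts in heads to be tested there, 48 were also called higher in females in the head. A gene this low in males passes the count filter through the female heads, so that number is a description and supports nothing.

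**Figure D1:**
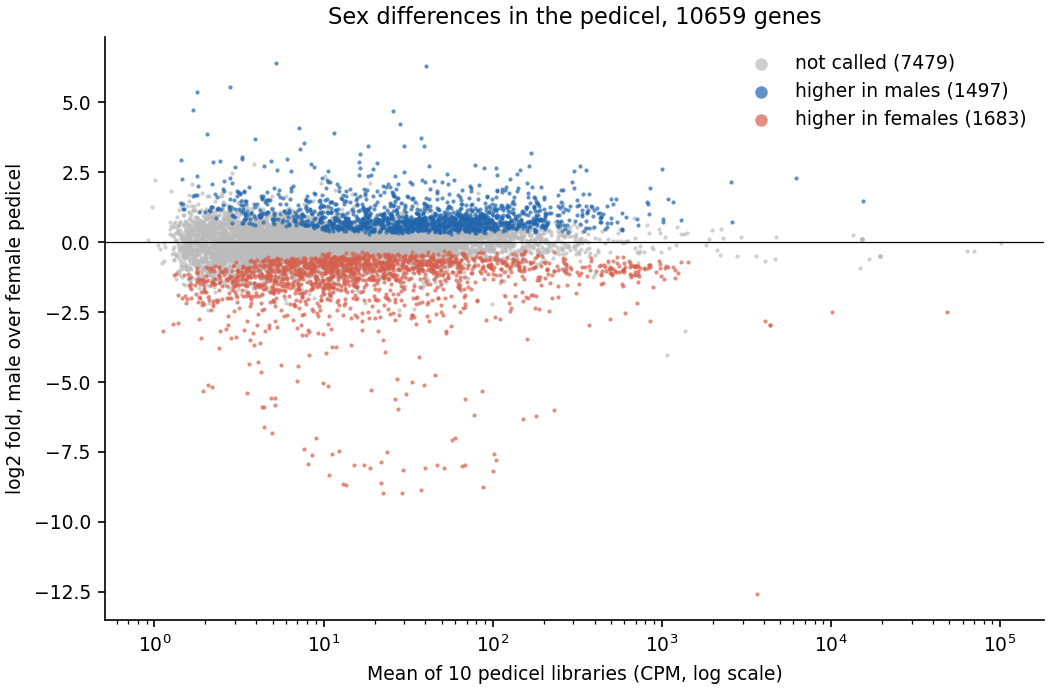
Log2 fold of male over female pedicel (vertical axis) against the mean level over the 10 pedicel libraries in CPM (horizontal axis, log scale), 1 point per gene, with genes called higher in males in blue, those called higher in females in red and the others in grey. The 66 genes called past 16-fold toward females lie below -4, with AAEL028731 lowest at -12.57, and 8 genes lie above 4.

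Whether a gene was called depended on how abundant it was. Classes were set by the mean CPM over all 10 pedicels, with the libraries of both sexes weighed equally. A gene near absent in 1 sex is still placed by the other. AAEL028731, for example, had a mean of 3657 CPM from 1.23 CPM in males and 7312 CPM in females. Of 4573 genes at 1 to 10 CPM, 18.5% were called, against 35.2% of 5128 genes at 10 to 100 CPM, 56.8% of 891 genes at 100 to 1000 CPM and 40% of 65 genes at 1000 CPM or more. Of the 2 genes tested with a mean under 1 CPM, 0 were called. Precision changed over the same classes. The median standard error of the log2 fold was 0.31 in the lowest of these 4 classes, 0.18 and 0.19 in the next and 0.24 in the highest. The part of depth in the shares called was not tested.

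The balance of directions shifted along the same scale. At 1 to 10 CPM, 242 genes (5.29%) were male-higher and 602 (13.2%) female-higher. At 10 to 100 CPM the order turned, with 962 (18.8%) male-higher and 842 (16.4%) female-higher genes, and at 100 to 1000 CPM there were 283 (31.8%) and 223 (25%). The 65 most abundant genes held 10 male-higher and 16 female-higher calls. Called differences were largest at the ends of the scale. Their median absolute log2 fold was 1.24 at 1 to 10 CPM, 0.81 at 10 to 100, 0.94 at 100 to 1000 and 1.30 at 1000 CPM or more. Past 4-fold toward females there were 113 of 4573 genes at 1 to 10 CPM and 114 of 5128 at 10 to 100. At 100 to 1000 CPM there were 21 of 891, and at 1000 CPM or more 6 of 65. The 13 genes of the highest class with a transcript identical in all values to that of another gene ID held 2 of its 26 calls.

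**Figure D2:**
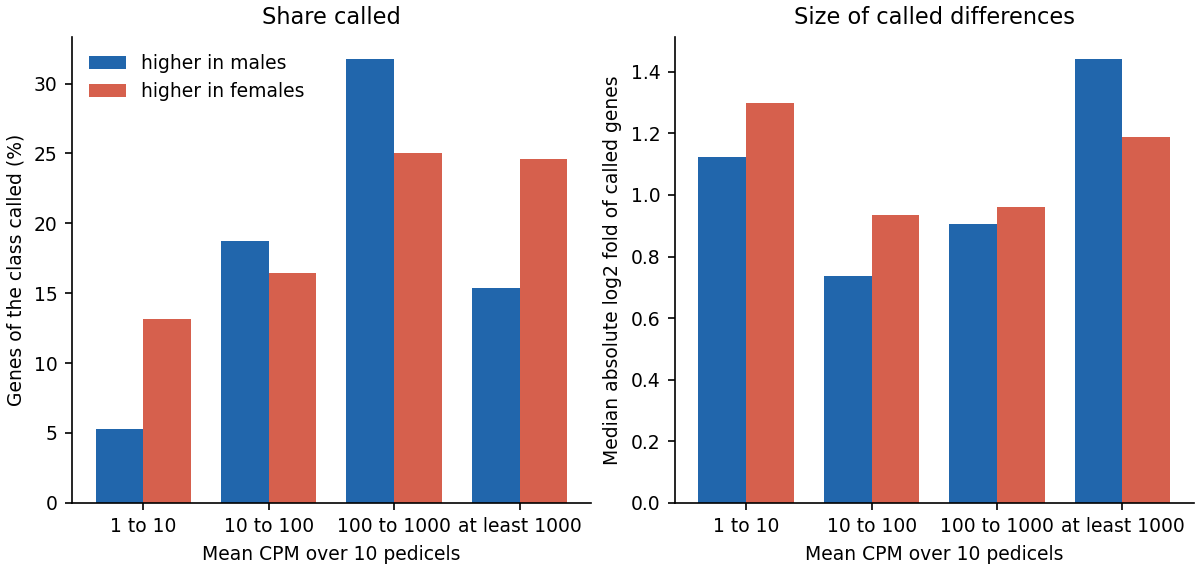
Left, share of genes called higher in males (blue) and in females (red) in 4 classes of mean CPM over the 10 pedicels. Right, median absolute log2 fold of those called genes. Shares peak at 100 to 1000 CPM, at 31.8% and 25%, and the female bar exceeds the male bar at 1 to 10 CPM and at 1000 CPM or more.

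The 10 libraries did not all stand equally far from the other sex. The leading principal component of log2 CPM held 48.3% of the variance and put the males at -62.3 to -9.80 and the females at 32.1 to 60.2, with male pedicel 2 nearest to the females. Spearman correlations across genes ran from 0.829 to 0.970 between males, from 0.887 to 0.969 between females and from 0.750 to 0.929 between a male and a female library. Male pedicel 2 had a median correlation of 0.903 with the other males and of 0.883 with the females. The other 4 males had medians of 0.913 to 0.952 with their own sex and of 0.827 to 0.851 with the females. The 5 females had medians of 0.906 (female pedicel 2) to 0.948 with their own sex and of 0.808 to 0.876 (female pedicel 3) with the males.

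Of the 3180 called genes, 2136 (67.2%) showed no overlap between the libraries of the sexes, 1055 with all males above all females and 1081 with all females above all males. Over all genes tested, called or not, the libraries were apart for 21%, 10.5% in each direction. Separation was commoner among larger differences, at 76.8% of the 1419 called genes with a fold of at least 2 and 59.4% of the 1761 with a smaller one. A library was counted on its own side for a gene when its log2 CPM fell on its sex's side of the midpoint between the group means. Males 1, 3, 4 and 5 were on their own side for 98.9%, 97.8%, 94.6% and 99.7% of called genes, and the 5 females for 92.7%, 93.7%, 89.6%, 95.2% and 98%. Male pedicel 2 was on the male side for 70.4%. Each library counts in its own group mean, so these shares lie above those of a library not used.

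Male pedicel 2 was also the library that most often broke the separation of the sexes. Of the 1044 called genes with overlap, 613 (58.7%) parted once it was left out, against 16 to 250 for any other library. Over the genes called higher in males, its median level stood 0.54 log2 units above the female mean, where the other males stood at 0.83 to 0.96. Over those called higher in females, it stood at -0.66 log2 units from the female mean, where the other males stood at -1.02 to -1.21. A fit without male pedicel 2 called 4152 genes, 1709 male-higher and 2443 female-higher, and 3091 (97.2%) of the 3180 calls were among them in the same direction. The lowest total with 1 library left out was 2310, without male pedicel 5.

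A second axis ran across both sexes. The second component held 22.1% of the variance and was above 0 in male pedicels 3 and 4 and female pedicels 3, 4 and 5 and below 0 in the other 5. The same libraries had the larger share of counts in transcripts with values identical to those of another gene ID. That share was 2.17%, 2.23%, 21.9%, 35.2% and 4.54% in the males, by number, and 6.13%, 10%, 24.5%, 26.2% and 21.3% in the females, so that the sexes overlapped. In heads it was 2.51% to 3.72%. Of the 141 genes tested that have such a transcript, 39 (27.7%) were called, near the 29.8% of all genes. Within the 5 pedicels with shares of 21.3% to 35.2%, 2 males and 3 females, 3439 genes were called, 1589 male-higher and 1850 female-higher. Within the 5 with shares of 2.17% to 10%, 3 males with male pedicel 2 among them and 2 females, 219 were called, 47 male-higher and 172 female-higher. With the split as a term, 4028 genes were called, 2019 and 2009.

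**Figure D3:**
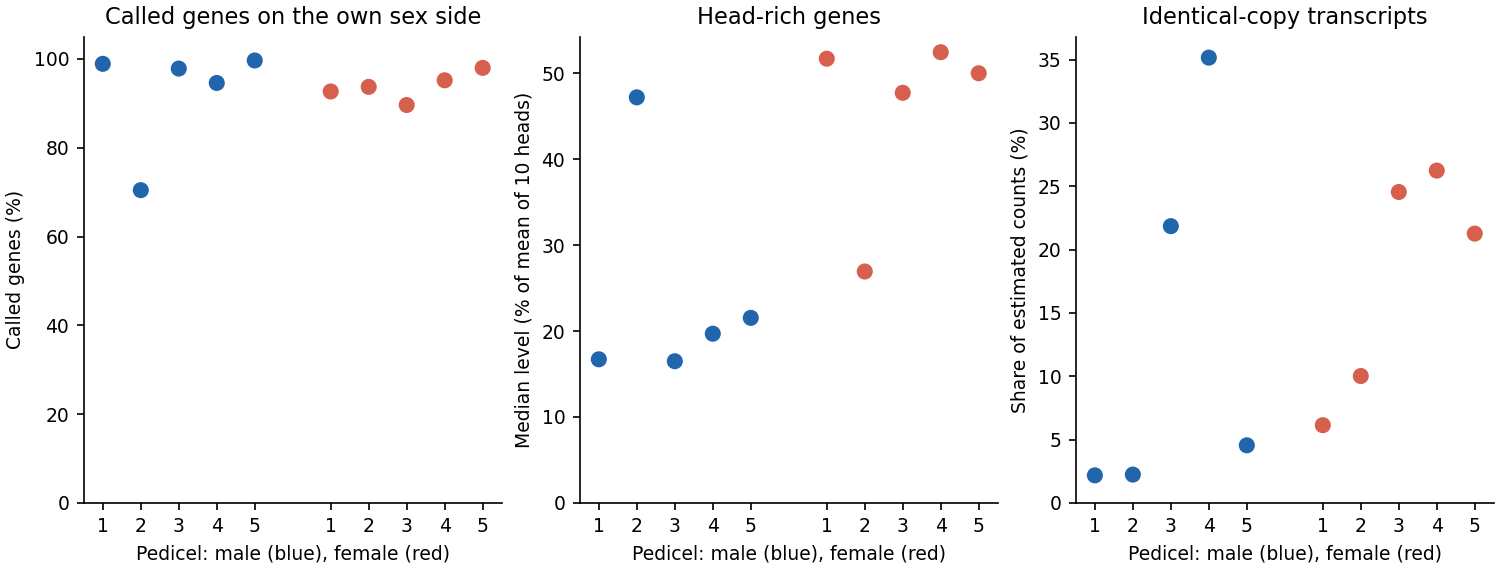
Each point is 1 pedicel library, males in blue and females in red, numbered 1 to 5 along the horizontal axis. Left, called genes on the library's own sex side in percent. Middle, median level of head-rich genes in percent of the mean of the 10 heads. Right, share of estimated counts in identical-copy transcripts. Male pedicel 2 is the low male at 70.4% on the left and the high male at 47.2% in the middle.

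Genes were then sorted by tissue. A gene was pedicel-rich or head-rich when the mean of both pedicel groups differed at least 2-fold from the mean of both head groups at an adjusted p under 0.05 (edgeR, all 20 libraries), and otherwise called similar. Of the 11381 genes in that fit, 1437 (12.6%) were pedicel-rich and 1005 (8.83%) head-rich. Of the genes tested between the sexes in the pedicel, 1394 were pedicel-rich, 855 head-rich and 8410 similar. The similar class can still hold genes that differ between the tissues, by less than 2-fold in the mean of both sexes or in 1 sex alone. With no fold limit on the classes it held 4282 genes. The class weighs both sexes equally but uses the same pedicel libraries as the sex comparison, so a large change in 1 sex can also move a gene's class.

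Sex differences pointed opposite ways in the 2 tissue classes. Among pedicel-rich genes, 412 (29.6%) were male-higher and 176 (12.6%) female-higher, where 14% and 15.8% of all genes tested were. Among head-rich genes, 3 (0.351%) were male-higher and 213 (24.9%) female-higher. Genes similar in both tissues lay near the background, with 1082 (12.9%) male-higher and 1294 (15.4%) female-higher calls. The median log2 fold was 0.45 over all 1394 pedicel-rich genes (quartiles -0.38 and 1.04), -0.83 over the 855 head-rich genes (quartiles -1.28 and -0.35) and -0.01 over the similar genes, against -0.02 over all genes tested. Of the head-rich genes, 761 (89%) had a fold below 0.

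Most of the large male-higher differences were in pedicel-rich genes. The large female-higher ones fell in all classes and were commonest, for the size of the class, among head-rich genes. Of the 85 genes past 4-fold toward males, 71 were among 1394 pedicel-rich, 3 among 855 head-rich and 11 among 8410 similar genes. Of the 254 past 4-fold toward females, 69 were among the pedicel-rich, 94 among the head-rich and 91 among the similar genes. The male-higher share of pedicel-rich genes rose over the abundance classes as that of all genes did, from a higher start. It was 127 of 723 genes (17.6%) at 1 to 10 CPM, 215 of 540 (39.8%) at 10 to 100 and 66 of 106 (62.3%) at 100 to 1000 CPM. Of all genes, 5.29%, 18.8% and 31.8% were male-higher in these classes. At 1000 CPM or more the share was 4 of 25 (16%), near that of all genes, 10 of 65 (15.4%). The share of pedicel-rich genes higher in females was 12.3%, 13.7% and 11.3% in the lower 3 of these classes. The share of head-rich genes higher in females was 23% at 1 to 10 CPM, 24.8% at 10 to 100 and 28.7% at 100 to 1000 CPM, where 13.2%, 16.4% and 25% of all genes were, so that the share in the last of these lay near that of all genes. All 5 head-rich genes at 1000 CPM or more were called higher in females, where 16 of all 65 genes (24.6%) were.

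**Figure D4:**
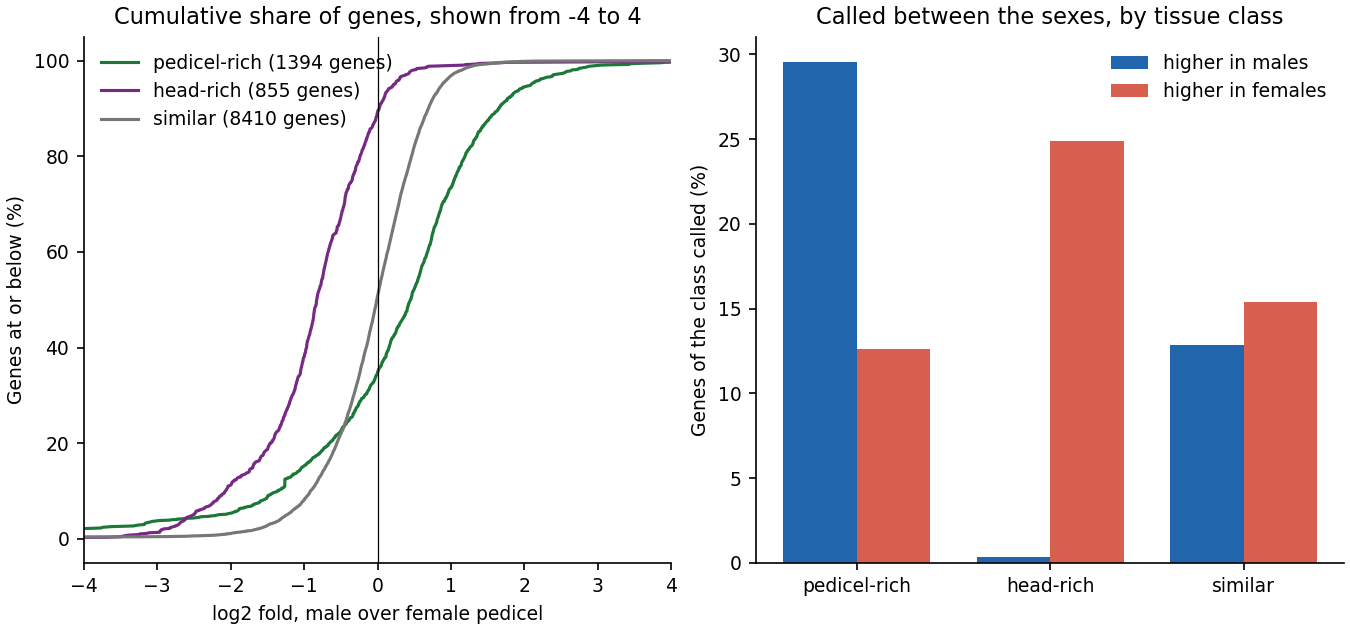
Left, cumulative share of genes by log2 fold of male over female pedicel for pedicel-rich (green), head-rich (purple) and similar genes (grey). Right, share of each class called higher in males (blue) and in females (red). At 0 the head-rich curve has reached 89% of its genes, the similar curve 50.8% and the pedicel-rich curve 34.7%, and the pedicel-rich class has its larger bar in males, 29.6% against 12.6%.

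The level of head-rich genes differed between single pedicel libraries in the same way as the calls. In percent of the mean head level, the median over the 1005 head-rich genes was 16.7%, 47.2%, 16.5%, 19.7% and 21.5% for the males in order of number. For the females in the same order it was 51.7%, 26.9%, 47.7%, 52.5% and 50%. Male pedicel 2 thus lay among the females and above female pedicel 2, and the other 4 males lay below all 5 females. Heads ranged from 85.5% to 112%. Head-rich genes held 1.58% to 16.5% of the counts of a male pedicel and 11.2% to 25.5% of those of a female pedicel. Whether this level has a part in the sex differences of single genes was not tested here. The classes and this level both use the pedicel libraries.

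The count of head-rich genes higher in females depended on that library and on how the class was drawn. With male pedicel 2 left out of both fits, 627 of 973 head-rich genes (64.4%) were higher in females and 3 in males, and the median log2 fold was -1.31. In that fit 22.5% of all genes were higher in females and 15.7% in males. Without male pedicel 1, 127 of 843 head-rich genes were higher in females, beside 1260 of all 10886 genes. Without male pedicel 5 it was 133 of 868, beside 1204 of all 10891. Within the 5 pedicels high in identical copies it was 618 of 878, with the counts over all genes given above. Within the 5 low in identical copies, where male pedicel 2 was 1 of 3 males, it was 3 of 915, beside 172 of all 11386 genes. When a gene had to be 2-fold lower in the pedicel in each sex on its own, 26 of 335 head-rich genes (7.76%) were higher in females and 2 in males, under the 15.8% of all genes. With male pedicel 2 left out as well, 211 of 369 (57.2%) were higher in females, beside the 22.5% of all genes. The direction of the median did not change in any of these fits, which gave -0.33 to -1.51.

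The pedicel-rich counts were also recomputed under these settings. Under the rule of both sexes, 274 of 836 pedicel-rich genes (32.8%) were male-higher and 96 (11.5%) female-higher. Without male pedicel 2 it was 503 of 1534 (32.8%) and 174 (11.3%), where 15.7% and 22.5% of all genes were. Library totals alone, with 363 and 99 of 922 genes, raised the median of the class to 0.82 while that of all genes rose to 0.36. Over all 10659 genes, 1322 were male-higher and 499 female-higher with that scaling. The same scaling left 169 head-rich genes higher in females and 34 in males of 1519, with a median of -0.16. Within the 5 pedicels low in identical copies, the direction of the counts turned, with 26 male-higher and 53 female-higher pedicel-rich genes, while the median log2 fold was 0.23. Of the 11386 genes tested there, 47 were male-higher and 172 female-higher. Within the 5 pedicels high in identical copies, 549 pedicel-rich genes were male-higher and 127 female-higher.

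The same genes were compared between the sexes in heads, from libraries that the pedicel fit does not use. In a fit of the 10 heads alone, 1497 of 10454 genes (14.3%) were called, 469 (4.49%) male-higher and 1028 (9.83%) female-higher. Of the pedicel calls higher in females, 1614 were tested in the head and 623 were called higher in females there too, 38.6% of the pedicel list and 62.3% of the 1000 head calls tested in both. Of those higher in males, 114 of 1355 were called higher in males in the head, 8.41% of the pedicel list and 25.7% of the 444 head calls. A gene low in heads can pass the count filter there through the sex in which it is higher, so these shares are a description. The head counts moved with single libraries, from 895 calls without female head 4 to 3139 without female head 3, and the male-higher count from 174 without male head 3 to 1605 without female head 3. The balance of the head calls turned with library totals alone, at 1271 male-higher and 826 female-higher genes, and DESeq2 gave 973 and 1164. The shares of pedicel calls found in the head rest on the 469 and 1028 calls of the fit described and were not recomputed for the others.

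The pedicel calls were then split by tissue class. All 3 head-rich genes higher in male pedicels were called higher in males in the head. Of 120 pedicel-rich genes called higher in female pedicels and tested in heads, 77 (64.2%) were called higher in females there, and the median head log2 fold of the 120 was -1.34, beside -1.71 for the 176 in the pedicel. The rest of the 176 had too few counts in heads. A gene near absent in males passes the count filter through the female heads, so this share and median are a description and support nothing. Of 275 pedicel-rich genes called higher in male pedicels and tested in heads, 36 (13.1%) were called higher in males in the head and 18 in females, with a median head log2 fold of 0.04 beside 1.30 for the 412 in the pedicel. Head-rich genes higher in female pedicels, at a median of -1.84, had a median head log2 fold of -0.14, and 34 of the 213 (16%) were called in the same direction there and 5 in the other. For the similar class, 75 of 1077 male-higher genes (6.96%) and 512 of 1281 female-higher genes (40%) were called in the same direction in the head.

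A test of the difference itself, the interaction of sex and tissue in the 20 libraries, was called for 1352 of 11381 genes (11.9%), with male over female larger in the pedicel for 6.46% of the genes and smaller for 5.42%. It uses the same pedicel libraries as the sex calls, so its counts among those calls are a description. Of the 412 pedicel-rich genes higher in males, 194 had a larger male excess in the pedicel than in the head and 1 a smaller one. Among the 213 head-rich genes higher in females, 161 (75.6%) had a larger female excess in the pedicel. Of the 176 pedicel-rich genes higher in females, 28 had a larger female excess in the pedicel and 4 a smaller one. The 213 head-rich genes stood at a median of -2.40 log2 units from head to pedicel in males and -0.66 in females. The 412 pedicel-rich genes higher in males stood at 3.13 in males and 1.68 in females. Without male pedicel 2, the interaction was called for 611 of 627 head-rich genes higher in females and for 293 of 503 pedicel-rich genes higher in males. The lowest counts with 1 library left out were 90 of 127 head-rich genes, without male pedicel 1, and 149 of 346 pedicel-rich genes, without male pedicel 5. Under scaling by library totals alone, the interaction was called for 33 of 169 head-rich and 112 of 363 pedicel-rich genes. The share of all genes with an interaction was not computed for the fits without 1 library or with library totals. Their counts therefore cannot be set against a background.

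Single genes were named by a rule on the separation of the libraries, taking in each tissue class the 2 genes per direction whose lowest library of the higher sex lay farthest above the highest library of the lower sex, and the most abundant gene without overlap. Eligible were called genes without overlap at 10 CPM or more in the higher sex, 225 male-higher and 94 female-higher among pedicel-rich genes, 1 and 73 among head-rich genes, and 724 and 659 among similar genes. The rule gave 16 genes, and in each of them, by the rule, the sexes did not overlap. No transcript of the 16 was an identical copy. Head levels are given as CPM scaled over the 10 heads.

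Among pedicel-rich genes higher in males, AAEL008754 stood at 45.2, 33.5, 83, 94.3 and 141 CPM in male pedicels 1 to 5 and at 0.373, 1.77, 0.403, 1.75 and 0.669 CPM in female pedicels 1 to 5. The lowest male library was 18.9 times the highest female library. The log2 fold was 6.31 (SE 0.57, edgeR adjusted p = 5.9e-05), from means of 79.4 ± 42.8 and 0.994 ± 0.711 CPM (SD, n = 5 each). It was 5.10 log2 units (SE 0.54) higher in pedicels than in heads, where it averaged 1.08 ± 0.617 CPM in males and had 3 counts over the 5 females. AAEL020474 stood at 13.6, 11.6, 9.59, 9.16 and 7.69 CPM in male pedicels 1 to 5, and in females it was found in female pedicel 4 alone, at 0.585 CPM. Against its 3 female counts the males held 102 times as much, with 95% counting bounds of 34.6 and 496. It was as limited to males in the head, with 8.65 ± 1.86 CPM in males (SD, n = 5) and no count in females, at least 104-fold higher against a floor of 3 counts over the group. Its pedicel-rich class did not hold in either sex alone, at a pedicel over head log2 fold of 0.66 (SE 0.32, adjusted p = 0.10) in males and 2.98 (SE 1.21, adjusted p = 0.067) in females, the latter from 3 pedicel counts against none in heads.

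AAEL009881 was the most abundant of the pedicel-rich genes without overlap. It stood at 10132, 4312, 11777, 12513 and 12569 CPM in male pedicels 1 to 5 and at 1430, 2517, 2695, 2168 and 1760 CPM in female pedicels 1 to 5. Male pedicel 2 was the lowest male, and it still exceeded the highest female library 1.60 times. Its log2 fold of 2.28 had an SE of 0.33 (adjusted p = 7.0e-04). In heads it was lower by 5.33 log2 units (SE 0.23) and differed between the sexes in the same direction, with 260 ± 86.5 CPM in males and 91.6 ± 8.91 CPM in females (SD, n = 5 each; log2 fold 1.51, SE 0.19, adjusted p = 4.0e-04). The interaction was not called (adjusted p = 0.21).

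The class of pedicel-rich genes higher in females was led by a pair that did not differ detectably between pedicel and head in females. AAEL026087 stood at 101, 245, 86.9, 270 and 309 CPM in female pedicels 1 to 5 and at 0.975, 1.03, 0.152, 2.42 and 1.06 CPM in male pedicels 1 to 5 (log2 fold -7.59, SE 0.59, edgeR adjusted p = 3.6e-05). AAEL006485 stood at 49.3, 150, 47.2, 163 and 160 CPM in females and at 1.36, 0.562, 1.22, 1.08 and 0.192 CPM in males (log2 fold -7.06, SE 0.60, adjusted p = 5.4e-05). Female pedicels 1 and 3 were the low females for both. In heads they averaged 254 ± 134 and 145 ± 67.6 CPM in females (SD, n = 5 each) and had 6 counts each over the 5 males. Over the 5 male pedicels they had 42 and 34 counts, and their pedicel over head log2 folds, the mean of both sexes, were 1.48 and 1.32. In the fit of 20 libraries these folds were 2.87 (SE 0.95, adjusted p = 0.016) and 2.56 (SE 0.90, adjusted p = 0.023) in males, at these few counts, and 0.10 (SE 0.38, adjusted p = 0.86) and 0.08 (SE 0.35, adjusted p = 0.88) in females.

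AAEL028731 was the most abundant of the pedicel-rich genes higher in females and the most uneven. Female pedicels 1 to 5 held 169, 40.7, 19278, 2263 and 14810 CPM, and males held 5.18 CPM in male pedicel 3, 0.975 in male pedicel 1 and none in the other 3. The 3 highest, female pedicels 3, 4 and 5, are the females high in identical copies. The log2 fold was -12.57 (SE 2.30, edgeR adjusted p = 2.8e-03), and limma-voom did not call it (adjusted p = 0.082, the highest of the alternatives; the lowest was 5.0e-09 with DESeq2). The fold ran from -14.57 to -11.82 with 1 library left out and was -8.27 within the 5 pedicels low in identical copies. Female heads 1 to 5 held 92.6, 0, 0, 1.39 and 118 CPM, and male heads held no count. The pedicel over head log2 fold was 7.86 (SE 2.08, edgeR adjusted p = 8.8e-03) in females. In males it was 6.27 (SE 4.94, adjusted p = 0.31), from 44 counts in pedicels, so the class did not hold in males alone.

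The 1 eligible head-rich gene higher in males was AAEL000109. It stood at 29.4, 46.4, 24.2, 19.7 and 28.1 CPM in male pedicels 1 to 5 and at 5.59, 3.70, 1.41, 2.34 and 3.34 CPM in female pedicels 1 to 5 (log2 fold 3.14, SE 0.35, edgeR adjusted p = 1.5e-04). In heads it averaged 74.1 ± 10.3 CPM in males and 12.2 ± 3.32 CPM in females (SD, n = 5 each; log2 fold 2.60, SE 0.17, adjusted p = 2.1e-06). Both tissues thus differed in the same direction, and the interaction was not called (adjusted p = 0.40). Its head-rich class was met in females alone, at a pedicel over head log2 fold of -1.43 (SE 0.28, edgeR adjusted p = 8.2e-04). In males the fold was -0.92 (SE 0.24, adjusted p = 3.6e-03), under 2-fold.

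Of the head-rich genes higher in females, AAEL008619 stood at 71.7, 162, 50.8, 169 and 138 CPM in female pedicels 1 to 5 and at 1.17, 0.562, 0.457, 2.15 and 0.673 CPM in male pedicels 1 to 5 (log2 fold -7.01, SE 0.51, edgeR adjusted p = 2.6e-05). Its head levels were 141 ± 49 CPM for females and 6.50 ± 4.27 CPM for males (SD, n = 5 each), a smaller difference (log2 fold -4.37, SE 0.40) than in the pedicel (interaction log2 fold -2.65, SE 0.67, adjusted p = 0.015). Its head-rich class held in males alone, at a pedicel over head log2 fold of -2.49 (SE 0.55, adjusted p = 8.9e-04), beside 0.17 (SE 0.37, adjusted p = 0.76) in females. AAEL000932 stood at 10.8, 7.72, 10.7, 12.7 and 9.14 CPM in female pedicels and had 7 counts over the 5 male pedicels, none of them in males 1 and 4 (log2 fold -5.81, SE 0.51, adjusted p = 5.4e-05). It too was higher in female heads, at 23.4 ± 10.2 against 0.632 ± 0.259 CPM (log2 fold -5.18, SE 0.37). Its head-rich class was not met in either sex alone. The pedicel over head log2 fold was -1.44 (SE 0.62, edgeR adjusted p = 0.060) in males, from 7 counts against 22 in heads. In females it was -0.78 (SE 0.29, adjusted p = 0.045), under 2-fold.

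AAEL006259 was the most abundant head-rich gene without overlap and shows the position of male pedicel 2. Male pedicels 1, 3, 4 and 5 held 5916, 8175, 4895 and 6497 CPM, male pedicel 2 held 47986 CPM, and female pedicels 1 to 5 held 106509, 66046, 62815, 79130 and 95059 CPM. The log2 fold was -2.48 (SE 0.69, edgeR adjusted p = 0.019). It became -3.69 without male pedicel 2 (adjusted p = 4.3e-05), and the call was lost without male pedicel 1 (adjusted p = 0.052) or male pedicel 5 (adjusted p = 0.053). Heads did not part by sex, with 134194 ± 18502 CPM in males and 144241 ± 8806 CPM in females (SD, n = 5 each; log2 fold -0.10, SE 0.11, adjusted p = 0.54), and the interaction was -2.42 (SE 0.68, adjusted p = 0.025). The pedicel over head log2 fold was -2.82 (SE 0.50, adjusted p = 1.2e-04) in males and -0.40 (SE 0.47, adjusted p = 0.54) in females.

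Genes of the similar class included moderate and extreme differences between the sexes. AAEL001281 stood at 2091, 1096, 1684, 1735 and 2043 CPM in male pedicels 1 to 5 and at 335, 185, 290, 314 and 284 CPM in female pedicels 1 to 5 (log2 fold 2.62, SE 0.23, edgeR adjusted p = 5.4e-05). Its head difference was smaller, at 634 ± 41.3 against 482 ± 47.9 CPM (log2 fold 0.40, SE 0.09), with an interaction of 2.21 (SE 0.25, adjusted p = 2.5e-05). AAEL004165 stood at 217, 154, 151, 177 and 182 CPM in males and at 48.3, 52.1, 52.6, 55.1 and 45.9 CPM in females, the narrowest spread of the named genes in females (log2 fold 1.80, SE 0.13, adjusted p = 2.5e-05). In heads the sexes were at 91.2 ± 3.51 and 77.9 ± 11.3 CPM, which did not pass the test (adjusted p = 0.11), and the interaction was 1.56 (SE 0.17, adjusted p = 1.5e-05). In males, the pedicel over head log2 fold of AAEL001281 was 1.86 (SE 0.18, edgeR adjusted p = 7.3e-08). That of AAEL004165 was 1.36 (SE 0.12, adjusted p = 1.8e-08). In females the 2 folds were -0.36 (SE 0.17, adjusted p = 0.12) and -0.20 (SE 0.12, adjusted p = 0.20). Their class rests on the mean of both sexes, at 0.75 and 0.58 log2 units. The 2 genes have 11 and 8 transcripts, which were summed.

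AAEL022285 was the most abundant similar gene higher in males, at 23199, 11346, 24432, 23555 and 30500 CPM in male pedicels 1 to 5 and 9188, 4002, 11146, 9290 and 7411 CPM in female pedicels 1 to 5 (log2 fold 1.46, SE 0.36, edgeR adjusted p = 0.011). The lowest male, male pedicel 2, was at 1.02 times the highest female, so the separation there was slight. In heads the sexes did not pass the test, with 15091 ± 3457 CPM in males and 12313 ± 3606 CPM in females (SD, n = 5 each; adjusted p = 0.39). The pedicel over head log2 fold of AAEL022285 was 0.99 (SE 0.30, edgeR adjusted p = 0.011) in males and -0.17 (SE 0.30, adjusted p = 0.70) in females.

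Similar genes higher in females were led by AAEL000793 and AAEL003053. AAEL000793 stood at 79.1, 220, 65.5, 273 and 236 CPM in female pedicels 1 to 5 and had 16 counts over the 5 male pedicels, none in male pedicel 2 (log2 fold -8.76, SE 0.79, edgeR adjusted p = 5.9e-05). AAEL003053 stood at 26.1, 54.7, 23, 71.7 and 49.7 CPM in females and had 3 counts over the males, so females held 604 times as much, with 95% counting bounds of 206 and 2932. Female pedicels 1 and 3 were again the low females for both genes. In female heads they averaged 147 ± 82.7 and 51.2 ± 28.1 CPM, against 2 and 4 counts over the 5 male heads. AAEL012740, the most abundant of the class, differed by less, at 2198, 1735, 1371, 1799 and 1748 CPM in female pedicels and 1134, 1266, 1001, 1022 and 951 CPM in male pedicels 1 to 5 (log2 fold -0.72, SE 0.16, adjusted p = 7.2e-03). Its head difference was of the same size (log2 fold -0.68, SE 0.13, adjusted p = 3.6e-03; interaction adjusted p = 0.90), and the pedicel call was lost with library totals alone (log2 fold -0.34, adjusted p = 0.57).

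**Figure D5:**
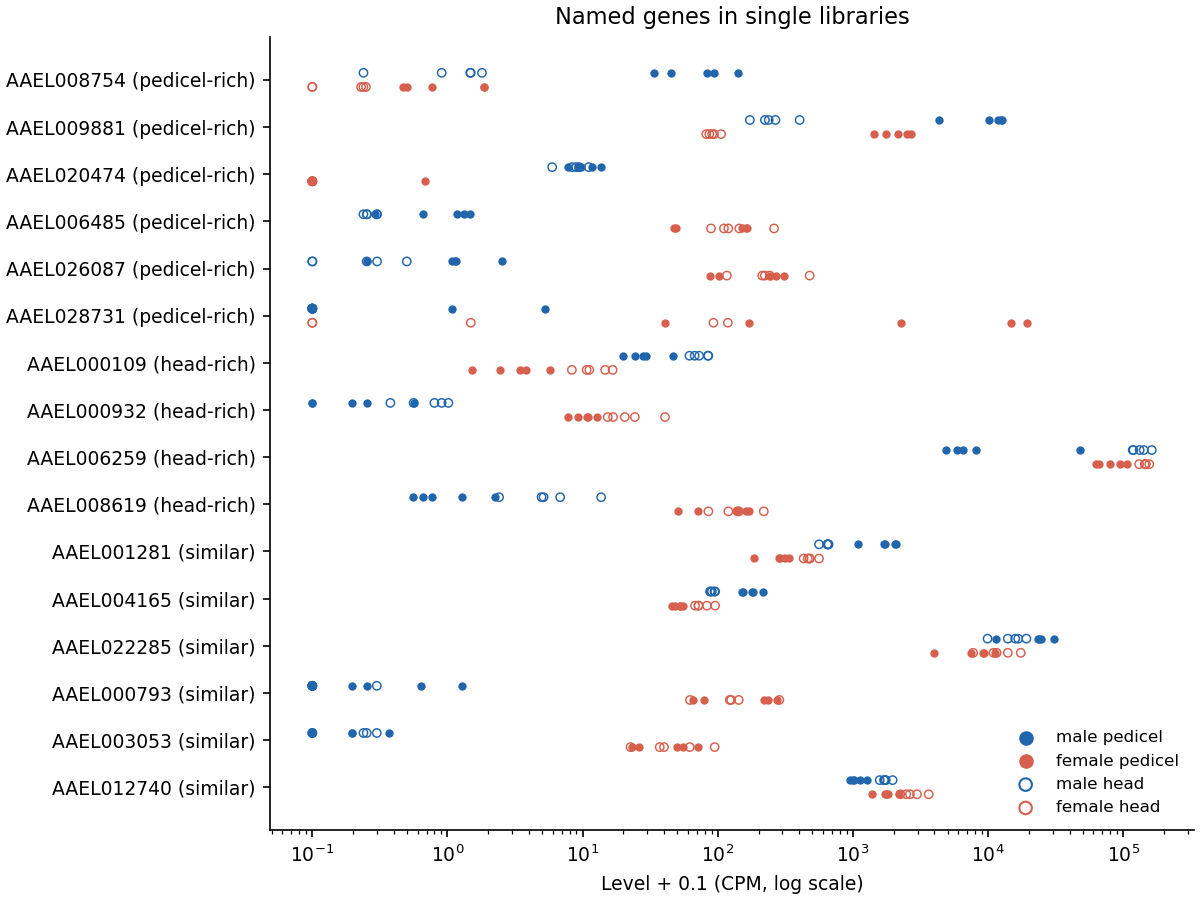
Level in every library of the 16 named genes, as CPM plus 0.1 on a log scale, with filled points for pedicels, open points for heads, blue for males and red for females. Each gene's tissue class is in brackets. Filled blue and red points do not overlap in any row, and in AAEL006259 the filled blue point of male pedicel 2, at 47986 CPM, lies next to the females.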

How the data were processed

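RNA was extracted with phenol and chloroform and libraries were built at a sequencing centre, per the labels' protocols. The submitters' processing notes list FastQC, HISAT2 and featureCounts; versions, genome build, annotation and the step behind the fractional values are not given in the sources used. The authors deposited estimated counts per transcript, unscaled. These expected counts were summed by gene ID and rounded. Each sample's description names its column.

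The 10 pedicels were fitted alone (edgeR 4.0.16 in R 4.3.3; filterByExpr by sex, TMM, glmQLFit with robust estimates, glmQLFTest). TMM factors ran from 0.58 to 1.54, and the biological coefficient of variation was 0.35, against 0.19 in a like fit of the 10 heads. Standard errors are the absolute log2 fold over the square root of F. Counting intervals and floors cover counting error only. The tissue class and interaction came from 1 fit of 20 libraries. Log2 CPM used a prior count of 2, and separation added 0.5 CPM. Alternatives were other scalings and filters, DESeq2 1.42.0, limma-voom (limma 3.58.1), other class rules, a replicate block and leaving out libraries. The edgeR tests of sex in pedicels, sex in heads, tissue and interaction were tested on simulated data with known changes; the alternatives were not. The simulation changed few genes, equally often up and down, in independent libraries. It cannot show how the tests behave with many changes or with a second axis across libraries. Named genes were the 2 per direction and tissue class with the widest separation, plus the most abundant, among called genes without overlap at 10 CPM or more in the higher sex. No 2 libraries of a sex agreed within sampling noise (chi-square per degree of freedom at least 21.2).

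The comparison, classes and lists were chosen with earlier results of these data known. Of 19804 IDs, 0 matched the RefSeq gene table (AaegL5.0), so lists resting on names, and protein or promoter sequences, were not used here.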

Additional observations from a re-analysis of the deposited data

Results flagged for a closer look

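In 82 groups of 5 libraries, each the levels of a named gene or a library measure, 11 had a single library far from the other 4. The cutoff is one that about 1 in 20 groups of independent, normally distributed values would pass. A group with counts in 1 library alone passes it by construction, and library measures share genes, so the 11 were not weighed against chance. In 6 of the 11 the single library was male pedicel 2, which stood nearer to the females than the other males did. It had 47.2% of the head level over head-rich genes, 16.5% of its counts in head-rich genes, 70.4% of called genes on its own side, 35.8% of the head level over head-rich genes called higher in females, and 47986 CPM of AAEL006259. It also had a median of 536% of the head level over pedicel-rich genes called higher in males, below the other males. Female pedicel 2 stood apart at 26.9% of the head level over head-rich genes, below the other females. AAEL020474 was found in female pedicel 4 alone among females, at 0.585 CPM, and AAEL028731 was highest among males in male pedicel 3, at 5.18 CPM. In heads, AAEL001281 was lowest among males in male head 2, at 560 CPM, and AAEL000793 was found in males in male head 5 alone, at 0.200 CPM.

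For 4 named genes the difference between the sexes was not equal in pedicel and head by the interaction test. The interaction log2 fold was 2.21 for AAEL001281 and 1.56 for AAEL004165, with the larger male excess in the pedicel. It was -2.42 for AAEL006259 and -2.65 for AAEL008619, with the larger female excess in the pedicel.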

How the results depend on the processing

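The number of pedicel calls was within 1.5 times of 3180 except with library totals alone (1821, with 499 higher in females), at an adjusted p under 0.01 (1705, 817 higher in males and 888 in females) and within the 5 pedicels low in identical copies (219, 47 and 172). The 5 pedicels high in identical copies stayed within that range. The replicate numbers did not meet the rule for pairing (deviations of same-numbered libraries correlated at 0.07 to 0.44), and 3 of 5 males matched their own number best. A replicate block gave 3663 calls in the pedicel and 2587 in the head, 1200 male-higher and 1387 female-higher. Leaving out 1 library gave 2310 to 4152 calls, 1106 to 1709 higher in males and 1204 to 2443 higher in females.

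Head-rich genes higher in females numbered 406 of 1005 with all 20 libraries, beside 2408 of all 11381 genes. At an adjusted p under 0.01 they numbered 83 of 855, beside 888 of all 10659. With no fold limit on the class they were 572 of 2867 (20%), where 15.8% of all genes were higher in females. They were 26 of 335 (7.76%) with the class met in each sex and 34 of 378 by ratio of means, both under that 15.8%. They numbered 3 and 618 within the pedicels low and high in identical copies, and 127 to 627 without 1 library. Pedicel-rich genes higher in males numbered 770 of 3510 (21.9%) with no fold limit and 274 of 836 (32.8%) with the class met in each sex. Of all genes, 14% were. They numbered 26 within the pedicels low in copies, and 343 to 503 without 1 library. Pedicel-rich genes higher in females numbered 569, 96 and 53 in the same order, 99 with library totals alone, 110 by ratio of means, 97 with the class met in each sex and no male pedicel 2, and 136 to 184 without 1 library. With no fold limit, 226 of 2867 head-rich genes (7.88%) were higher in males, and 16.2% of pedicel-rich genes were higher in females. The median log2 fold was then 0.11 for pedicel-rich and -0.24 for head-rich genes, nearer to that of all genes than with the limit. Calls in the head ran from 895 to 3139 without 1 library. The cause was not tested. The settings that use identical copies, and the class met in each sex with male pedicel 2 left out, were chosen after seeing the data. In named genes, 452 of the values under alternatives kept direction and call, 12 lost the call and 0 reversed; 6 of the 12 lay within the pedicels low in copies.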
